A study of Mus musculus with 4 samples.

Results

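The 10 genes of a muscle calcium handling set were followed in mouse gastruloids, namely *Ryr1*, *Ryr2*, *Atp2a1*, *Atp2a2*, *Pln*, *Sln*, *Casq1*, *Casq2*, *Slc8a1* and *Cacna1c*. They were matched by symbol, and all 10 were found among the 32286 features counted at days 4, 5 and 6 and among the 32287 counted at day 11. Gastruloids are aggregates of embryonic stem cells that form several germ layer derivatives in culture. Here they were made from the wild type mouse embryonic stem cell line Zx1 with a pulse of the WNT activator CHIR, and were given bFGF, VEGF and ascorbic acid from day 4 to day 7. Gastruloids of 4 ages (days 4, 5, 6 and 11) were dissociated with trypsin, and at least 8 of them were pooled for the single library of each age, prepared with the 10X Genomics Chromium Single Cell 3′ chemistry. All 4 groups share this line and genotype, and the labels set them apart by age alone. Exposure to the added factors differs with age, since days 5 and 6 fall within the period of their addition and day 11 after it. The comparison addressed here is how the isoforms named for heart and for skeletal muscle were used in cells marked by *Myl7*, the atrial myosin light chain gene expressed in early cardiomyocytes, and in cells marked by *Myog*, which encodes the myogenic regulatory factor myogenin.

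In striated muscle a depolarisation opens voltage-gated calcium channels of the surface membrane, and ryanodine receptors then release calcium from the sarcoplasmic reticulum, where calsequestrin holds it. The SERCA pumps return calcium to the store under the brake of small membrane peptides, and the sodium-calcium exchanger carries it out of the cell. In adult muscle *Ryr1*, *Atp2a1*, *Casq1* and *Sln* are best known from skeletal fibres (*Sln* also from the atria), and *Ryr2*, *Atp2a2*, *Casq2*, *Pln*, *Slc8a1* and *Cacna1c* from the heart.

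The genes lie on 10 loci spread over the genome. In GENCODE vM21 (mm10 coordinates), the release channel genes are at chr7:29003344-29125179 on the minus strand (*Ryr1*) and at chr13:11553102-12106945 on the minus strand (*Ryr2*). The calsequestrin genes are at chr1:172209894-172219868 on the minus strand (*Casq1*) and at chr3:102086415-102146514 on the plus strand (*Casq2*). Of the 10 genes, *Casq2* alone overlaps other counted genes on its own strand, namely *Gm43244* and *4632404M16Rik*, so that reads shared with them could be left out of its count. Bases just upstream of the start were taken from RefSeq (GRCm38.p6), which matched 8 of the 10 genes (*Atp2a2* and *Sln* had no entry). The 250 bases before the start of the calsequestrin and ryanodine receptor genes are shown because these 2 pairs differed most between the cell sets described below. Each is written 5′ to 3′ on the strand of the gene, from chr1:172219896-172220145 (minus), chr3:102086165-102086414 (plus), chr7:29125152-29125401 (minus) and chr13:12106946-12107195 (minus) in this order. Capitals mark a match to the E-box CAGCTG bound by myogenic factors, to AGATAA bound by GATA factors, or to the CArG and MEF2 motifs, searched on both strands.
Casq1: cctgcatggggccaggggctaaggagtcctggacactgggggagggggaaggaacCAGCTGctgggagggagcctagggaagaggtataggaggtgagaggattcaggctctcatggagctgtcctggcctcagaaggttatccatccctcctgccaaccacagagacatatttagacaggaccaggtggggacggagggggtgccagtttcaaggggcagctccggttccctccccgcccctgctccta
Casq2: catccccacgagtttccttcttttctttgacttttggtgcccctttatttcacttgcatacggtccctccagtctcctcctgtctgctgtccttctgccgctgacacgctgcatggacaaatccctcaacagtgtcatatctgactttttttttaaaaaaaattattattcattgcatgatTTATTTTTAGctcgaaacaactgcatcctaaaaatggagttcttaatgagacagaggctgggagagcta
Ryr1: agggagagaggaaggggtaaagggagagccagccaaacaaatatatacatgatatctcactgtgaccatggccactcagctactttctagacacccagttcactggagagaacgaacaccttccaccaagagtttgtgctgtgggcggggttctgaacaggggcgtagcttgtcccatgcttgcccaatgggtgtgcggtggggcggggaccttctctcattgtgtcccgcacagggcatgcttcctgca
Ryr2: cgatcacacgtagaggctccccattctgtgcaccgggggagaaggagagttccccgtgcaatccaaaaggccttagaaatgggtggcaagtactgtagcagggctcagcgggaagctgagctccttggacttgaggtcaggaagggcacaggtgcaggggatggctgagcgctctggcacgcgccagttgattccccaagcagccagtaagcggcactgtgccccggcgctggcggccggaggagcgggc
In *Casq1*, the gene named for skeletal muscle, the capitals are 1 E-box at 195 to 190 bases before the start. In *Casq2* they are 1 MEF2 motif at 69 to 60 bases before the start, and neither ryanodine receptor gene held any of the 4 motifs in this window. Among all 32851 RefSeq windows of this length, 13.0% held the E-box, 9.99% AGATAA, 1.47% a CArG motif and 2.92% a MEF2 motif. Of the other members, *Atp2a1* held 1 E-box, *Pln* and *Slc8a1* each held 1 AGATAA, and the 3 starts listed for *Cacna1c* held none. These matches are descriptions of the letters and say nothing about binding.

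The deposited tables held 7324, 7794, 6628 and 9584 cells with 227398362, 236714826, 182150138 and 149169498 unique molecular identifiers (UMIs, each standing for 1 captured RNA molecule) at days 4, 5, 6 and 11. After the limits on cells and the removal of doublets, 6555, 6457, 5254 and 7849 cells remained, with median depths of 24263, 28154, 24745 and 11436 UMIs. Day 11 was therefore the shallowest per cell. Its matrix header names another software version (6.0.1) than those of days 4 to 6 (3.1.0). Age, exposure to the added factors, depth and this version therefore cannot be told apart between days. Pairs of libraries shared 5 to 23 cell barcodes, which is 0.0683% to 0.295% of the cells of the earlier day. With 1 library per day there were no replicates, so no test was made between days or cell sets. Levels are given as CPM, the UMIs of a gene over all UMIs of the summed cells, scaled to counts per 1000000 UMIs, and the ranges in brackets are exact 95% intervals that cover counting error alone. The counts come from the 3′ ends of transcripts and were not divided by gene length, and capture differs between genes, so a level or a share of a pair is compared between cell sets and not between genes. In a mixed library, fewer cells of a type and less RNA per cell cannot be told apart, which is why the levels were also taken inside gated cells.

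Across all kept cells, *Pln*, *Sln*, *Casq1* and *Casq2* were near absent at days 4 and 5, and all 10 genes stood highest at day 11. *Pln*, which encodes the SERCA inhibitor phospholamban, had 2 UMIs at day 4 and 1 at day 5, then stood at 2.89 CPM (2.62 to 3.17) at day 6 and 117 CPM (115 to 119) at day 11. *Sln*, which encodes the related peptide sarcolipin, had 2, 1 and 9 UMIs on the first 3 days and 50.2 CPM (49.0 to 51.6) at day 11. *Pln* thus had UMIs in number from day 6, and *Sln* at day 11 alone. *Casq1* stood at 0.0665, 0.266, 3.75 and 77.9 CPM (76.3 to 79.5) at days 4, 5, 6 and 11, whereas *Casq2* stood at 0.102, 0.171, 0.0333 and 5.75 CPM (5.31 to 6.20). At day 6 *Casq2* had 5 UMIs in the whole library.

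The other genes had a level at days 4 and 5, when no cell was Myl7-high by the limit given below. *Atp2a2*, the pump gene shared by heart, slow muscle and most other cells, stood at 66.1, 61.6, 103.1 and 337 CPM (333 to 340). *Slc8a1*, the sodium-calcium exchanger gene, stood at 2.64, 0.990, 44.3 and 165 CPM (163 to 167). *Ryr2* stood at 1.13, 0.779, 22.6 and 95.9 CPM (94.2 to 97.8). *Cacna1c*, the gene of the L-type channel pore of the heart, stood at 1.97, 0.492, 5.72 and 10.6 CPM (10.1 to 11.3). These 3 were each lowest at day 5 and highest at day 11. *Ryr1* stood at 1.06, 1.47, 0.798 and 3.27 CPM (2.94 to 3.62), and *Atp2a1*, the pump gene of fast skeletal fibres, at 0.860, 0.543, 0.446 and 3.84 CPM (3.49 to 4.22). Both stayed under 4 CPM on all 4 days.

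**Figure D1:**
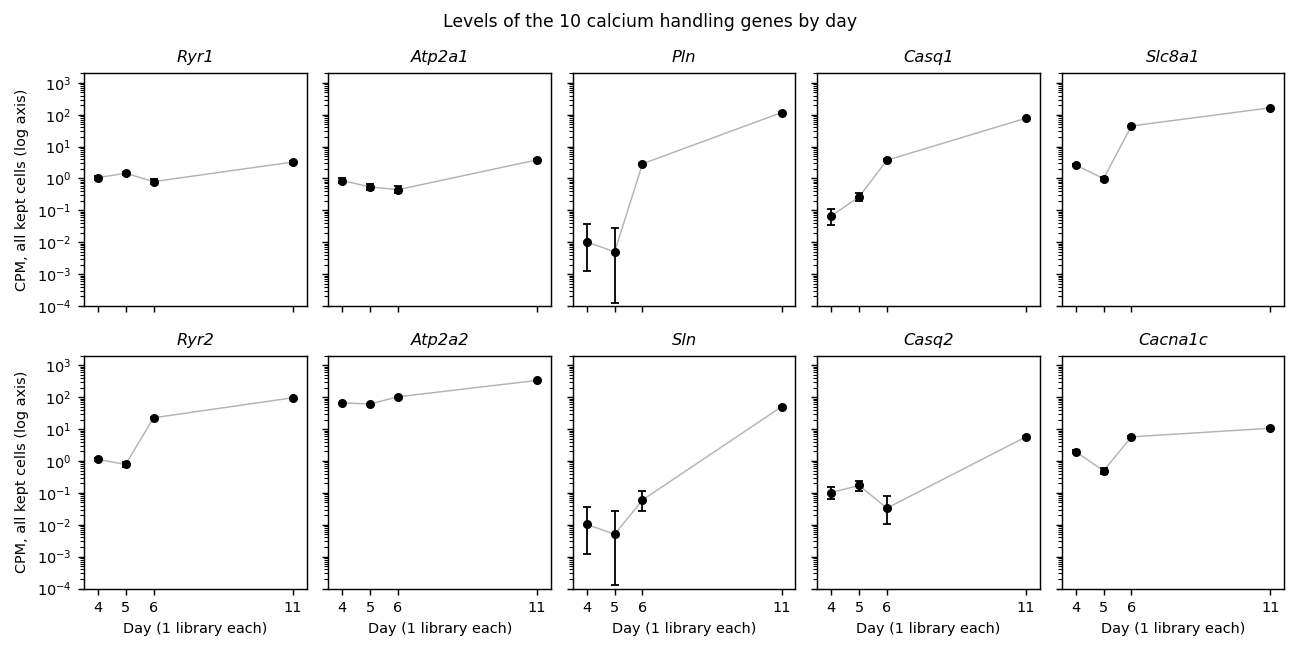
Levels of the 10 genes by day in CPM of all kept cells on a log axis, with exact 95% Poisson intervals as bars (1 library per day). *Pln*, *Sln* and *Casq1* differ the most between day 4 and day 11, *Atp2a2* has a level on every day, and *Ryr1* and *Atp2a1* stay under 4 CPM.

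Cells were then split by the gate genes. Myl7-high cells had 30 or more *Myl7* UMIs per 10000 UMIs and no *Myog* UMI, and Myog-positive cells had at least 1 *Myog* UMI and *Myl7* below that limit. No cell of days 4 and 5 was Myl7-high, and 5 and 4 cells of these days were Myog-positive, too few to describe. Day 6 held 430 Myl7-high cells and 3 Myog-positive cells, and day 11 held 1260 and 178, beside 19 cells that met both conditions. At day 11 all 8 cardiac markers had UMIs in the Myl7-high cells (5612 CPM summed, with the skeletal list at 10.2 CPM and *Myf5* and *Cdh15* at 0). All 10 skeletal markers had UMIs in the Myog-positive cells (1898 CPM summed, with the cardiac list at 21.4 CPM and *Nppa* at 0). Smooth muscle markers, which immature striated cells also carry, summed to 2312 and 1828 CPM in the same order, with *Myh11* at 0 in the Myog-positive cells. The 3 Myog-positive cells of day 6 had no UMI of any of the 10 skeletal markers and are not described further. An endothelial gate (at least 3 of 6 endothelial markers) held 424 cells at day 11 and 369 at day 6. Its levels are given beside the results as those of another cell type. How much of such a level is RNA free in the droplets was not tested. A neural gate (at least 3 of 9 neural markers, 974 cells at day 11) differed from it for some genes, such as *Slc8a1* below. *Myl7* itself stood at 49.4 CPM (44.98 to 54.1) in the endothelial gate of day 11 and at 43.2 CPM (37.0 to 50.2) in the Myog-positive cells.

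Set against each other at day 11, the Myl7-high and Myog-positive cells separated 9 of the 10 genes. On CPM plus 5, 6 genes were at least 2-fold higher in the Myl7-high cells (*Ryr2*, *Atp2a2*, *Pln*, *Casq1*, *Slc8a1* and *Cacna1c*), where 8.06% of the 17587 features tested were. Another 3 were at least 2-fold lower there (*Ryr1*, *Atp2a1* and *Casq2*), where 5.31% of all features were. *Sln* was below 2-fold. The median difference of the 10 genes was 2.85 on the log2 scale, against 0.02 over all features tested. The genes on each side match the heart and skeletal names in all but *Casq1* and *Casq2*, which stood the other way round.

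**Figure D2:**
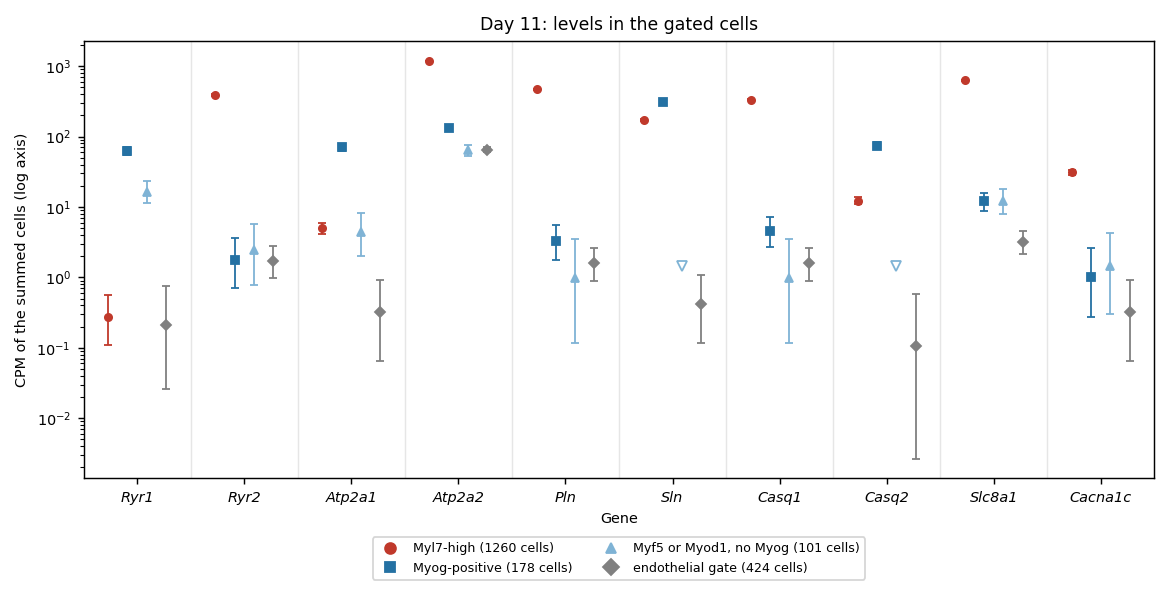
Levels of the 10 genes in 4 sets of day 11 cells in CPM on a log axis, with exact 95% Poisson intervals as bars. An open triangle stands at the level that 3 UMIs would give where a set had none. *Ryr1* and *Ryr2* separate the Myl7-high from the Myog-positive cells in opposite directions, and so do *Casq1* and *Casq2*, with *Casq1* the one that is higher in the Myl7-high cells.

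The release channels were the most exclusive pair. *Ryr2*, the cardiac ryanodine receptor gene, stood at 389 CPM (382 to 397) in the Myl7-high cells and at 1.76 CPM (0.707 to 3.62) in the Myog-positive cells, a ratio of 221 (107 to 551). Its level in the Myog-positive cells lay within the interval of the endothelial gate, at 1.70 CPM (0.969 to 2.75). *Ryr1*, the skeletal receptor gene, stood at 62.5 CPM (55.0 to 70.8) in the Myog-positive cells and at 0.274 CPM (0.110 to 0.565, 7 UMIs) in the Myl7-high cells, a ratio of 228 (109 to 573) the other way. Its level in the Myl7-high cells overlapped that of the endothelial gate, at 0.212 CPM (0.0257 to 0.765). *Ryr1* made up 97.3% (94.4% to 98.9%) of the UMIs of the pair in the Myog-positive cells and 0.0704% (0.0283% to 0.145%) in the Myl7-high cells. The *Ryr2* level of Myog-positive cells was 3.55 CPM with doublets left in and 15.6 CPM with the *Myl7* limit at 100, which lets cells of intermediate *Myl7* into the set. No Myog-positive cell held a UMI of both genes (95 held *Ryr1* alone, 5 *Ryr2* alone and 78 neither), but 5 cells with *Ryr2* are too few to show exclusion within cells. Of the Myl7-high cells, 7 held both, 0 *Ryr1* alone, 1130 *Ryr2* alone and 123 neither. Cells with a *Myf5* or *Myod1* UMI but no *Myog* UMI (101 cells), an earlier myogenic set, had *Ryr1* at 16.5 CPM (11.4 to 23.0).

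Calsequestrin use was crossed with respect to the names of the genes. *Casq1* stood at 334 CPM (327 to 341) in the Myl7-high cells and at 4.52 CPM (2.68 to 7.14) in the Myog-positive cells, a ratio of 73.9 (46.7 to 125). *Casq2* stood at 12.3 CPM (10.9 to 13.7) in the Myl7-high cells and at 74.1 CPM (65.9 to 83.0) in the Myog-positive cells, 6.04-fold (5.14 to 7.11) higher in the latter. *Casq1* therefore made up 96.5% (96.0% to 96.8%) of the calsequestrin UMIs of Myl7-high cells and 5.75% (3.44% to 8.94%) of those of Myog-positive cells. The Myl7-high cells held 96.2% of all *Casq1* UMIs of day 11 with 22.4% of the UMIs of all genes. *Casq2* UMIs were split, with 47.9% in the Myl7-high cells and 45.1% in the far fewer Myog-positive cells. The endothelial gate had 1.59 CPM (0.889 to 2.62) of *Casq1* and 0.106 CPM (0.00268 to 0.590) of *Casq2*. The neural gate had 0.657 CPM (0.300 to 1.25) of *Casq1*. The *Casq1* level of Myog-positive cells lay above both. By the *Myh3* split described below, it pooled 15.3 CPM (7.92 to 26.8) in 35 cells and 1.88 CPM (0.689 to 4.08) in the other 143. Of the 1260 Myl7-high cells, 649 held *Casq1* alone, 26 *Casq2* alone and 115 both. Of the 178 Myog-positive cells, 5 held *Casq1* alone, 33 *Casq2* alone and 12 both.

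The same was seen at day 6 for the gene that had UMIs. In its 430 Myl7-high cells *Casq1* stood at 45.7 CPM (41.8 to 49.8), from 519 UMIs in 171 cells. No UMI of *Casq2* was found there, with an exact upper limit of 0.325 CPM. *Casq1* stood at 0.317 CPM in the day 6 cells of neither gate. Among these, it stood at 1.06 CPM (0.5945 to 1.75, 15 UMIs) in the endothelial gate and 0.0713 CPM (1 UMI) in the neural gate. *Casq2* had UMIs in the Myl7-high cells only at day 11, and the exact interval of its ratio to day 6 begins at 37.56-fold.

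The pumps overlapped more than the release channels. *Atp2a2* stood at 1183 CPM (1170 to 1196) in the Myl7-high cells and 132 CPM (121 to 143) in the Myog-positive cells, a ratio of 8.99 (8.24 to 9.82). The endothelial gate had 64.8 CPM (59.8 to 70.2), so a level of this gene was shared by other cell types. *Atp2a1* stood at 70.3 CPM (62.3 to 79.1) in the Myog-positive cells and 4.98 CPM (4.15 to 5.92) in the Myl7-high cells, 14.1-fold (11.4 to 17.6) higher in the former. The *Atp2a1* level of the Myl7-high cells was above the 0.318 CPM (0.0656 to 0.929) of the endothelial gate, and came from 127 UMIs in 77 cells. All of these held *Atp2a2* too, which was found in 97.0% of all Myl7-high cells. *Atp2a1* made up 34.8% (31.5% to 38.2%) of the pump UMIs of Myog-positive cells and 0.419% (0.349% to 0.498%) of those of Myl7-high cells. Both pump genes were found together in 71 of the 178 Myog-positive cells, *Atp2a2* alone in 62 and *Atp2a1* alone in 7. The *Myf5* or *Myod1* cells had *Atp2a1* at 4.36 CPM (1.99 to 8.28) and *Atp2a2* at 63.5 CPM (53.1 to 75.3), the latter close to the endothelial value.

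Of the peptides that restrain the pumps, phospholamban transcripts marked 1 gate and sarcolipin transcripts both. *Pln* stood at 467 CPM (458 to 475) in the Myl7-high cells and 3.27 CPM (1.74 to 5.58) in the Myog-positive cells, a ratio of 143 (83.5 to 268). The latter was 8.52 CPM with doublets left in and 31.4 CPM with the *Myl7* limit at 100. *Sln* stood at 171 CPM (166 to 176) in the Myl7-high cells and 314 CPM (297 to 332) in the Myog-positive cells, 1.84-fold (1.73 to 1.96) higher in the latter. This ratio passed 2-fold when the *Myog* gate was set at 2 UMIs and when the mean over cells was taken. In both gates *Sln* came from a minority of cells, with 4353 UMIs in 265 of 1260 and 1250 UMIs in 55 of 178. The highest single cells had 7454 CPM (Myl7-high) and 4522 CPM (Myog-positive), while the median cell of either gate had none. The *Myf5* or *Myod1* cells had no *Sln* and no *Casq2* UMI, with an exact upper limit of 1.79 CPM for each. Within Myl7-high cells, 163 held both peptides, 579 *Pln* alone and 102 *Sln* alone.

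The surface membrane genes went with *Myl7*. *Slc8a1* stood at 629 CPM (619 to 639) in the Myl7-high cells and 12.1 CPM (8.89 to 16.0) in the Myog-positive cells, a ratio of 52.2 (39.3 to 70.8). The level of the Myog-positive cells lay above the 3.18 CPM (2.14 to 4.54) of the endothelial gate and below the 20.4 CPM (18.0 to 22.9) of the neural gate and the 27.6 CPM of all cells of neither gate. It was 30.2 CPM with the *Myl7* limit at 100. *Cacna1c* stood at 30.9 CPM (28.8 to 33.1) in the Myl7-high cells and 1.005 CPM (0.274 to 2.57, 4 UMIs) in the Myog-positive cells, a ratio of 30.8 (11.97 to 113). The latter interval overlapped that of the endothelial gate, at 0.318 CPM (0.0656 to 0.929). The *Cacna1c* level of Myog-positive cells was 2.19 CPM with the *Myl7* limit at 100, and no UMI remained with the *Myog* gate at 2 UMIs.

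**Figure D3:**
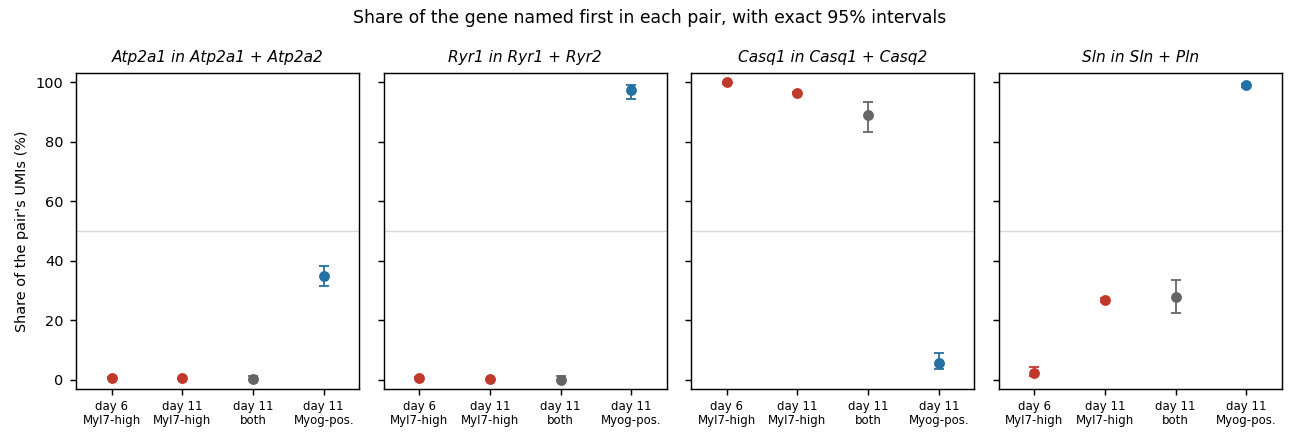
Share of the UMIs of each pair that belonged to the gene named first, in the Myl7-high cells of days 6 and 11 (red), the 19 day 11 cells that met both gates (grey) and the Myog-positive cells of day 11 (blue), with exact 95% Clopper-Pearson intervals. *Casq1* is at 96.5% in the Myl7-high and 5.75% in the Myog-positive cells of day 11, whereas *Ryr1*, *Atp2a1* and *Sln* have their highest share in the Myog-positive cells.

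The share of cells with a UMI separated the gates in the same direction as the levels for the genes given here. With each cell thinned to 5000 UMIs (1153 Myl7-high, 177 Myog-positive and 394 endothelial cells deep enough, leaving out 107, 1 and 30), *Ryr2* was found in 72.0% of Myl7-high, 1.13% of Myog-positive and 1.27% of endothelial cells. *Ryr1* was found in 0.174%, 21.5% and 0% of them, and *Casq1* in 42.5%, 2.26% and 0.761%. *Casq2* was found in 3.73%, 19.8% and 0%, and *Pln* in 48.0%, 1.69% and 0.761%. *Slc8a1* was found in 86.8%, 6.21% and 1.78%. Where the count was 0 in the 394 endothelial cells, 3 cells would have made a share of 0.761%. The 3 sets had median depths of 17424, 20612 and 17428 UMIs before thinning. Unthinned, *Casq1* was found in 60.6%, 9.55% and 3.54% of the cells of the 3 sets and *Casq2* in 11.2%, 25.3% and 0.236%.

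Against the day 11 cells of neither gate (6392 cells, among them those just below the *Myl7* limit), 8 of the 10 genes were at least 2-fold higher in the Myl7-high cells (5.22% of all features) and none was at least 2-fold lower (8.39% of all features). Without the added 5 CPM, *Sln* had the largest ratio, from 0.525 CPM (44 UMIs) to 171 CPM, followed by *Casq1*, from 1.98 to 334 CPM. On CPM plus 5 the order was reversed, with *Casq1* at 48.6-fold and *Sln* at 31.8-fold. *Ryr1* and *Atp2a1* were the genes below 2-fold on CPM plus 5, both at low levels where the added 5 CPM weighs most. Without it they went opposite ways. *Atp2a1* stood at 4.98 against 0.334 CPM, a ratio of 14.9 (9.83 to 23.3), and *Ryr1* at 0.274 against 1.38 CPM, a ratio of 0.198 (0.0779 to 0.421). In the Myog-positive cells, 4 genes were at least 2-fold higher than in neither gate (2.14% of all features), namely *Ryr1*, *Atp2a1*, *Sln* and *Casq2*. *Pln* was at least 2-fold lower there (6.79% of all features), at 3.27 against 14.4 CPM. However, 993 of the 1206 *Pln* UMIs of neither gate lay in the 118 cells with 10 to 30 *Myl7* UMIs per 10000. The endothelial gate had *Pln* at 1.59 CPM (0.889 to 2.62) and the neural gate at 2.33 CPM (1.60 to 3.29). The Myog-positive cells were thus not below these sets. The median over all features was -0.11 on the log2 scale for the Myl7-high cells and -0.16 for the Myog-positive cells. At day 6, 8 of the 10 genes passed the filter on detected cells, and 6 of these were at least 2-fold higher in the Myl7-high cells than in neither gate (3.41% of all features) and none lower (3.34%). The 6 were *Slc8a1* (426 against 13.0 CPM), *Ryr2* (204 against 7.83), *Casq1* (45.7 against 0.317), *Pln* (33.7 against 0.367), *Atp2a2* (492 against 71.4) and *Cacna1c* (41.6 against 2.79).

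Between the Myl7-high cells of day 6 and day 11, each taken as a whole, *Pln* and *Casq1* differed more than the channel genes. Of the 8 genes that passed the filter at both days, 3 were at least 2-fold higher at day 11 (3.23% of all features) and none was lower (2.84%). *Pln* stood at 33.7 CPM (30.4 to 37.3) and then 467 CPM, a ratio of 13.8 (12.5 to 15.4). *Casq1* went from 45.7 to 334 CPM (7.32-fold, 6.70 to 8.01) and *Atp2a2* from 492 to 1183 CPM (2.41-fold, 2.34 to 2.48). *Ryr2* (204 and 389 CPM, ratio 1.91), *Slc8a1* (426 and 629 CPM, ratio 1.476) and *Cacna1c* (41.6 and 30.9 CPM, ratio 0.743) stayed below 2-fold. *Sln*, found in too few cells of day 6 to pass, stood at 0.792 CPM (9 UMIs in 4 cells) and then 171 CPM. These are 2 libraries of unequal depth and software version, so the ratios describe the libraries. They also pool subsets that differed. By the *Myl2* and *Shox2* split described below, *Myl2* cells were 39 of 430 at day 6 and 345 of 1260 at day 11. In them *Slc8a1* went from 954 to 496, *Cacna1c* from 65.9 to 32.3 and *Casq1* from 135 to 207 CPM. In the *Shox2* cells these went from 319 to 687, 27.7 to 29.8 and 23.9 to 376.5 CPM. In the remainder they went from 392.5 to 692, 47.8 to 31.8 and 43.1 to 434 CPM. *Pln* was higher at day 11 in each subset.

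Across bins of *Myl7*, the gate did not mark a step for every gene. At day 11, cells with 10 to 30 *Myl7* UMIs per 10000 (118 cells, just outside the gate) already had *Ryr2* at 270 CPM (248 to 295), *Pln* at 529 CPM (496 to 563) and *Slc8a1* at 299 CPM, while cells with 30 to 100 (383 cells, just inside) had 308, 642 and 440 CPM. The next lower bin, 3 to 10 per 10000, had 17.2, 44.0 and 49.6 CPM. *Casq1* and *Sln* stood highest in the top bin (100 or more, 877 cells), with *Casq1* at 41.0, 98.2 and 427 CPM and *Sln* at 1.60, 13.9 and 232 CPM in the last 3 bins. *Pln* was lower in the top bin, at 398 CPM (389 to 407), than in the bin below it, at 642 CPM (623 to 661). At day 6, *Ryr2* stood at 2.22, 5.68, 44.7, 64.1, 134 and 260 CPM from the bin without *Myl7* to the top bin, a gradient with no step at the gate. *Casq1* at day 6 stood at 1.99 CPM just outside, 13.9 CPM just inside and 71.6 CPM in the top bin.

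Across bins of *Myog* the skeletal genes stood highest in the cells with most *Myog* UMIs. *Casq2* was at 2.25 CPM in cells with 1 *Myog* UMI (51 cells), 5.15 CPM with 2 or 3 (17 cells) and 108 CPM (95.6 to 121) with 4 or more (110 cells). *Sln* stood at 13.5, 10.3 and 456 CPM (431 to 483) and *Atp2a1* at 3.37, 18.0 and 99.8 CPM (88.3 to 112) in the same bins. *Ryr1* stood at 19.1 CPM (11.1 to 30.6) with 1 *Myog* UMI, 15.5 CPM with 2 or 3 and 83.6 CPM (73.0 to 95.2) with 4 or more, against 1.38 CPM in cells without *Myog*. *Atp2a2* stood at 67.5, 100 and 157 CPM over the 3 bins. Median depth also differed between the bins, at 14386, 20930 and 23352 UMIs, and its part in the result was not tested.

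**Figure D4:**
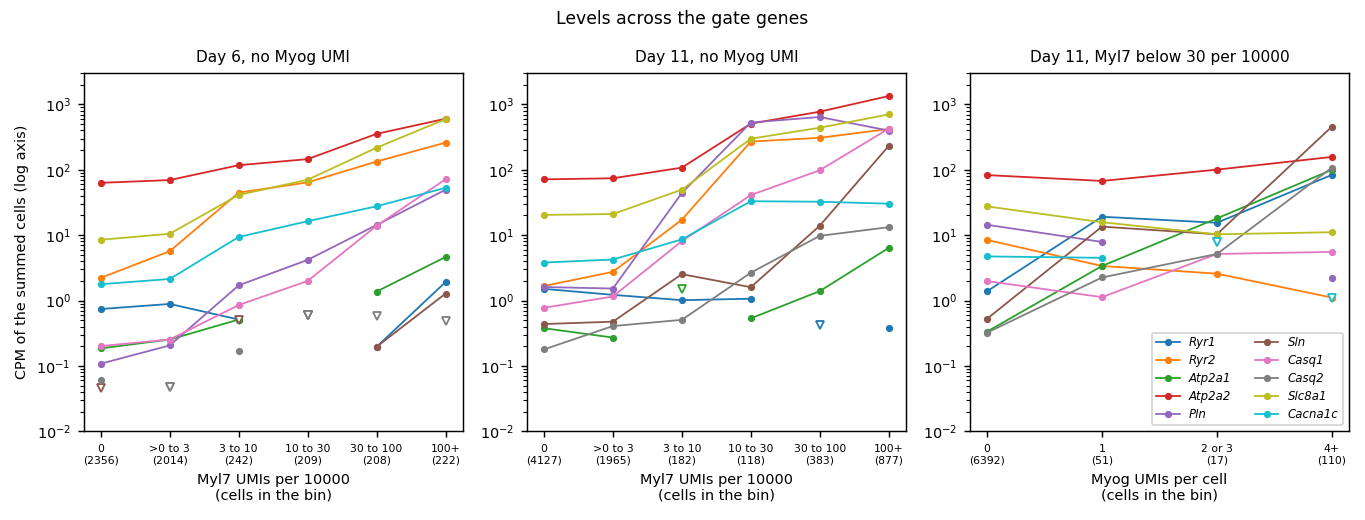
Levels of the 10 genes in CPM on a log axis across bins of *Myl7* at day 6 and day 11 and of *Myog* at day 11, with the cells per bin in brackets. Open triangles stand at the level of 3 UMIs where a bin had none (genes at 0 in the same bin lie on top of each other). *Ryr2*, *Slc8a1* and *Pln* are high just below the *Myl7* gate of 30 at day 11, and *Casq2*, *Sln*, *Atp2a1* and *Ryr1* are highest in cells with 4 or more *Myog* UMIs.

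Within the Myl7-high cells of day 11 the members were not used evenly. The cells were split by *Myl2*, the ventricular myosin light chain gene (10 or more per 10000 UMIs, 345 cells), and the rest by a UMI of *Shox2*, a transcription factor gene of the venous pole (650 cells with, 265 without). *Pln* stood at 1095 CPM (1072 to 1118) in the *Myl2* cells, 146 CPM (140 to 153) in the *Shox2* cells and 324 CPM (307 to 342) in the remainder, a ratio of 7.49 (7.13 to 7.87) between the first and the second. *Sln* stood the other way, at 55.0 CPM (49.9 to 60.4), 240 CPM (232 to 248) and 164 CPM (152 to 176), and was 4.37-fold (3.95 to 4.84) higher in the *Shox2* than in the *Myl2* cells. *Sln* thus made up 4.78% of the UMIs of the *Sln* and *Pln* pair in the *Myl2* cells and 62.1% in the *Shox2* cells. *Casq2* stood at 20.2 CPM (17.2 to 23.6) in the *Myl2* cells, 2.26-fold (1.77 to 2.90) above the *Shox2* cells, and *Casq1* at 207 CPM (197 to 218), 1.81-fold (1.72 to 1.92) below them. Even so, *Casq1* made up 91.1% (89.7% to 92.4%) of the calsequestrin UMIs in the *Myl2* cells. *Ryr2* differed little, at 369, 393 and 415 CPM over the 3 sets, and *Cacna1c* stood at 32.3, 29.8 and 31.8 CPM with overlapping intervals. Median depths were 18965, 18020 and 14637 UMIs, and their part in the result was not tested.

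Within the Myog-positive cells the split by *Myh3*, the embryonic myosin heavy chain gene, set apart 35 cells with 10 or more *Myh3* UMIs per 10000 from 143 below. *Casq2* stood at 314 CPM (276 to 356) in the former and 15.3 CPM (11.3 to 20.3) in the latter, a ratio of 20.5 (15.0 to 28.5). *Sln* stood at 1277 CPM (1199 to 1358) and 78.2 CPM (68.8 to 88.5), a ratio of 16.3 (14.2 to 18.8). The ratios of *Atp2a1* (209 and 36.3 CPM) and *Ryr1* (158 and 39.1 CPM) were smaller, at 5.77 (4.52 to 7.39) and 4.05 (3.13 to 5.23), and that of *Atp2a2* (290 and 92.9 CPM) was 3.12 (2.61 to 3.72). These 35 cells therefore held 246 of the 295 *Casq2* UMIs and 1000 of the 1250 *Sln* UMIs of the gate. *Casq1* stood at 15.3 CPM (7.92 to 26.8, 12 UMIs) and 1.88 CPM (0.689 to 4.08, 6 UMIs), a ratio of 8.17 (2.84 to 26.5). Its share of the UMIs of the calsequestrin pair was 4.65% (2.43% to 7.98%) and 10.9% (4.11% to 22.25%), with overlapping intervals. Median depths were close, at 20337 and 20888 UMIs. The *Myog* level itself differed between the subsets, at 1587 and 743 CPM.

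**Figure D5:**
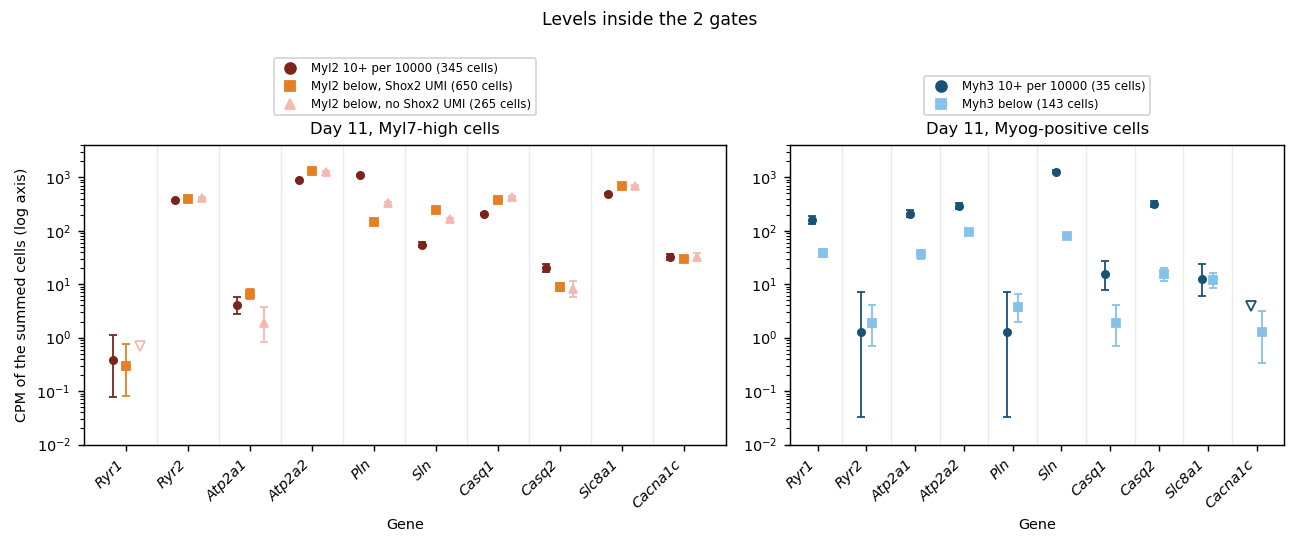
Levels of the 10 genes in CPM on a log axis in 3 subsets of the day 11 Myl7-high cells and 2 subsets of the Myog-positive cells, with exact 95% Poisson intervals as bars. Open triangles stand at the level of 3 UMIs where a subset had none. *Pln* is highest in the *Myl2* cells and *Sln* in the *Shox2* cells, and *Sln* and *Casq2* separate the *Myh3* subsets the most.

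The 19 day 11 cells that met both conditions resembled the Myl7-high cells in these genes. They held 21 *Myog* UMIs in all. *Ryr2* stood at 479 CPM (424 to 540), *Casq1* at 271 CPM (230 to 318), *Pln* at 342 CPM (295 to 394) and *Atp2a2* at 1189 CPM (1101 to 1283). No *Ryr1* UMI was found in these 19 cells, with an exact upper limit of 6.5 CPM. The cardiac markers summed to 4888 CPM and the skeletal markers to 17.6 CPM, with *Myod1*, *Myf5*, *Mymk*, *Myh3*, *Chrna1* and *Cdh15* at 0. They were counted in neither gate.

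Other genes of the pathway, taken from 5 lists, also divided between the gates of day 11 on CPM plus 5 (8.06% of all features higher and 5.31% lower in the Myl7-high cells). Among 15 partners of calcium release, 9 were at least 2-fold higher and 1 lower in the Myl7-high cells, with a median difference of 1.15 on the log2 scale (0.02 over all features). *Fkbp1b*, whose product binds ryanodine receptors, stood at 19.5 against 2.01 CPM, and *Trdn* (triadin, an anchor of calsequestrin) at 183 against 19.6 CPM. *Jph2* (junctophilin, which holds the store near the surface membrane) stood at 63.4 against 8.29 CPM and *Itpr1* (an inositol trisphosphate receptor) at 26.1 against 4.52 CPM. *Jsrp1*, whose product joins the skeletal release complex, was the one lower, at 19.2 against 45.2 CPM.

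The voltage-gated channel list was divided, with 4 of 12 genes higher and 5 lower and a median of -0.585 on the log2 scale. *Cacna2d2* stood at 217 CPM in the Myl7-high and 2.01 CPM in the Myog-positive cells, *Cacnb2* at 37.7 and 1.76 CPM, *Cacna1d* at 52.9 and 2.76 CPM, and *Cacna1h* at 49.3 and 8.54 CPM. These encode auxiliary or pore subunits beside that of *Cacna1c*. *Cacna1s*, the pore gene of the skeletal L-type channel, stood at 0.0392 (1 UMI) and 8.54 CPM, a ratio of 218 (36.6 to 8859) towards the Myog-positive cells. *Stac3*, needed for that channel in skeletal muscle, stood at 0.744 and 49.0 CPM, and *Cacna2d1* at 15.0 and 47.0 CPM. *Cacng1*, the skeletal gamma subunit gene, had no UMI in the Myl7-high cells and stood at 45.2 CPM in the Myog-positive cells. The exact interval of this ratio begins at 309.6-fold towards the Myog-positive cells.

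In the list of pumps and their regulators, 5 of 6 genes passed the filter, none was higher and *Mrln* (myoregulin, the SERCA inhibitor of skeletal muscle) was lower, at 0.196 against 92.4 CPM. The median of this list was 0.08 on the log2 scale. Of the 6 genes of other exchangers and store-operated entry, *Stim2* was lower in the Myl7-high cells, at 4.66 against 21.4 CPM, and none was higher (median -0.03). Of the 13 sensors and buffers, 5 were higher and none lower (median 0.71). *S100a1*, a calcium sensor of striated muscle, stood at 202 against 5.78 CPM, *Pvalb* (parvalbumin, the buffer of fast fibres) at 67.2 against 2.51 CPM, *Camk2d* at 197 against 8.04 CPM and *Camk2a* at 41.6 against 7.28 CPM, these last being subunit genes of a calcium and calmodulin kinase. So *Pvalb*, like *Casq1*, is a gene named from fast skeletal fibres whose level was higher in the Myl7-high cells here.

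To find the genes most like each member, log2 of CPM plus 5 was correlated over 10 cell sets of days 6 and 11 with at least 50 cells, across 8447 features that reached 20 CPM in 1 set. Sets of 1 day share a library, and most sets have low values of these genes, so the coefficients are a description. *Ryr1* was most like *Sox8* (r = 0.996) and *Myod1* (0.995), and *Ryr2* most like *Ppargc1a* (0.996) and *Nkx2-5* (0.996). *Casq1* was most like *Mybphl* (0.9899) and *Gm41505* (0.9895), and *Casq2* most like *Klhl31* (0.991) and *Klhl41* (0.969). *Klhl31* was also among the 2 nearest to *Sln* (0.959), after *Myoz2* (0.998). *Atp2a1* was most like *3300002P13Rik* (0.987) and *Klhl40* (0.974), and *Atp2a2* like *Xirp1* (0.992) and *Fsd2* (0.987). *Pln* was most like *Pdk2* (0.987) and *Rgs6* (0.985), *Slc8a1* like *Dstn* (0.992) and *Ppargc1a* (0.981), and *Cacna1c* like *Cacna1d* (0.988) and *Myocd* (0.985).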

How the data were processed

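Single-cell libraries of Zx1 gastruloids at days 4, 5, 6 and 11 (1 per day) were used. Per library, the authors deposited raw counts of UMIs for every gene in cells that had already been called. The submitters' processing notes name Cell Ranger 3.1.0 and mm10, whereas the matrix header of day 11 names version 6.0.1. No column belonged to an unmapped sample.

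Cells were kept with more than 200 genes, under 20% mitochondrial and over 5% ribosomal protein UMIs, and a total UMI number, on the log10 scale, no more than 3 scaled median absolute deviations away from that library's median. A doublet score was computed in each library from 2 simulated doublets per cell over 2000 variable genes and 30 components (scikit-learn 1.9.0, numpy 2.4.6), and cells scoring in the top 8% were removed. No clusters were made. CPM carry exact Poisson intervals, shares exact Clopper-Pearson intervals and ratios exact conditional binomial intervals (all 95%, scipy 1.17.1, pandas 2.3.3), which cover counting error alone. A gene without UMIs is drawn in the figures at the level of 3 counts. Folds were taken on CPM plus 5 over features found in at least 10 cells of the library (of both libraries between days), and 2-fold or more was a call. Fold calls and intervals were run on counts simulated from the same Poisson and binomial models, without spread between cells. That run checks the computation and cannot show that the intervals hold for unevenly expressed genes. No p-value was computed, since each day has 1 library.

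The members, gates and lists were chosen with earlier results of these data known. The genes named are the 10 members, the gate and marker genes, up to 4 genes per list and direction past 2-fold between the gates of day 11, and the 2 genes with the highest correlation to each member. Other gate limits, cell limits, added CPM, filters and thinning depths were tried, and their effect is given in the closing section.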

Additional observations from a re-analysis of the deposited data

Results flagged for a closer look

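The ratio of *Ryr1*, the skeletal ryanodine receptor gene, between Myl7-high cells and cells of neither gate was above 1 at day 6 and below 1 at day 11, so that it took opposite directions at the 2 ages. It was 1.485 (0.766 to 2.65) at day 6, from 13 UMIs in the Myl7-high cells and 107 in the others. It was 0.198 (0.0779 to 0.421) at day 11, from 7 and 116 UMIs. The interval of day 6 includes 1, and the difference between the days was not tested, since each day has 1 library. At day 6, 12 of the 13 UMIs lay in 6 cells with 100 or more *Myl7* UMIs per 10000. By the *Myl2* and *Shox2* split, 11 of the 13 lay in 5 of the 39 *Myl2* cells, at 8.52 CPM (4.255 to 15.25). The *Shox2* cells and the remainder of day 6 had 1 UMI each, at 0.215 and 0.184 CPM. The *Myl2* cells of day 11 had 3 UMIs, at 0.384 CPM (0.0791 to 1.12). *Ryr1* stood at 0.212 CPM in the endothelial gate of day 11.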

How the results depend on the processing

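Alternatives were run for the isoform shares, the levels and shares of cells in the Myl7-high and Myog-positive cells, and the counts between these gates at day 11, and no direction between the gates reversed. The comparisons with neither gate, the subsets and the values of the other pathway genes were not recomputed. The count of members stayed at 6 higher and 3 lower between the Myl7-high and Myog-positive cells of day 11, except that *Sln* made it 4 lower with the *Myog* gate at 2 UMIs and with the mean over cells. The counts of all features, 1418 higher and 934 lower as reported, were 2568 and 1645 with 1 CPM added, 676 and 410 with 20 CPM added, and 387 and 199 at a ratio of at least 4, as follows from how these settings are built. Of 36 isoform shares recomputed, 4 moved beyond their interval. With the *Myl7* gate at 100 per 10000 UMIs the *Casq1* share of Myl7-high cells was 96.99%, and in Myog-positive cells the *Ryr1* share was 79.55% and the *Atp2a1* share 30.87%. The mean over cells gave a *Casq1* share of 96.88%. Of 180 recomputed levels, 69 moved beyond their interval and 15 by over 1.5 times, 11 of them cases of *Ryr2*, *Pln*, *Slc8a1* or *Cacna1c* in Myog-positive cells, where few UMIs were found. Of 90 recomputed shares of cells with a UMI, 54 moved with the thinning depth or at 2 UMIs. No paired analysis was possible because each day has 1 library, and no replicate could be left out.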
